A study of Mus musculus with 2 samples.

Results

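The BMP group described here consists of 9 genes chosen by symbol: the ligand gene *Bmp4*, the antagonist gene *Grem1*, the signal-transducer genes *Smad2* and *Smad3*, the inhibitory genes *Smad6* and *Smad7*, and the target genes *Id1*, *Id2* and *Id3*. All 9 were found among the 24532 genes of the count table, and all 9 had a TPM (read abundance corrected for gene length and depth) in both libraries, as did 14158 genes in all. The libraries came from cardiac myofibroblasts of C57BL/6 mice (C57BL/6J in the study's methods), isolated 3 days after myocardial infarction (MI) and kept in culture. One culture received 12.5 nM of a control siRNA (siCtrl) and the other 12.5 nM of an siRNA against *Vgll3* (si*Vgll3*), and RNA was taken 72 h later. Myofibroblasts were defined in the study's methods as attached heart cells negative for CD45 in magnetic sorting, and a single siRNA sequence stands for the knockdown. Each condition had 1 library, so the differences below could not be checked against replicates, and p-values are not given.

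BMPs are secreted ligands of the TGF-β superfamily. They bind paired type I and type II serine/threonine kinase receptors, which phosphorylate SMAD1, SMAD5 and SMAD9, whereas TGF-β and activin receptors act through SMAD2 and SMAD3. Both branches use SMAD4 as a partner, antagonists such as gremlin 1 and noggin bind BMPs outside the cell, and SMAD6 and SMAD7 limit the signal inside it. The ID proteins, which are classical BMP targets, dimerise with E proteins and keep them from binding DNA. In cardiac fibroblasts, TGF-β signalling through SMAD3 is known for promoting the myofibroblast state, and BMP signals can oppose it.

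*Vgll3* itself was at 202 TPM with siCtrl and 84.0 TPM with si*Vgll3*, or 41.6% of the siCtrl level. The depth was 140815237 gene-assigned reads for the siCtrl library and 125789276 for the other. The difference between libraries is given as M, the log2 ratio of si*Vgll3* TPM to siCtrl TPM, and the level as A, log2 of the mean TPM of both libraries. Genes with M < −0.5 and A > 0 were called lower and genes with M > 0.5 and A > 0 were called higher, which are the limits of the study's MA plot with the sign reversed for higher genes. Square brackets hold a 95% Clopper-Pearson interval of the read-count ratio, shifted onto the TPM ratio, and such intervals cover counting error only and compare libraries, not conditions.

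The defining markers of the labelled cell type were present, since all 10 listed myofibroblast markers had reads. Of these 4 were lower, against 11.4% of all genes with A > 0, and 2 were higher, against 5.73%. *Acta2* (smooth muscle α-actin) was at 3296 TPM with siCtrl and 3866 with si*Vgll3*, and *Vim* (vimentin) at 5343 and 6541. *Tagln* (transgelin) and *Thy1* were higher, at 1864 and 2680 and at 134 and 220. The matrix genes *Postn* (periostin), *Col1a1*, *Col3a1* and *Col1a2* were lower, with M of −1.22, −0.90, −0.86 and −0.53. *Ptprc*, which encodes the sorted antigen CD45, was among 5 of 8 leukocyte markers with 0 reads in both libraries, where a count of 0 allows up to 3 reads. The summed TPM of the leukocyte markers was 13.4 with siCtrl and 6.10 with si*Vgll3*, with *Lyz2* at 10.9 and 3.13, *Cd68* at 1.21 and 1.14 and *Csf1r*, which went the other way, at 1.29 and 1.83. All 8 endothelial markers had reads, with a summed TPM of 27.3 and 23.96. Among them *Tek*, which made up most of the sum, was at 19.5 and 13.4. *Pecam1*, at 1.89 and 2.61, and *Cdh5*, at 2.13 and 3.01, went the other way. The median M of the 8 endothelial markers was 0.22. Of 8 cardiomyocyte markers, 6 had 0 reads in both libraries, *Myh6* included, but *Tnnt2* was at 60.0 TPM with siCtrl and 10.4 with si*Vgll3*. The remaining marker, *Tnni3*, went the other way, with 0 reads with siCtrl and 10 with si*Vgll3*. The smooth muscle and pericyte markers, of which 7 of 8 had TPM, summed to 119 TPM and 84.1 TPM. *Smtn*, which made up most of the sum, was at 95.1 and 71.5, and *Myh11* at 0.482 and 0.180. *Abcc9*, with 6 and 20 reads, and *Kcnj8*, with 0 and 24 reads, went the other way. The median M of the markers with TPM in this list was −0.41. Whether other cells in the culture had a part in any difference below was not tested.

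Of the 9 genes, *Bmp4* fell, *Grem1* was higher by more than the threshold but lay just below the filter on A, and the 7 SMAD and ID genes stayed within 0.5 of 0 on the M scale. With the filter, 1 of 8 genes was lower, against 11.4% of the 11754 genes with A > 0, and 0 of 8 were higher, against 5.73%. The share of lower genes in the group was thus close to that among all genes. Without the filter on A, 1 of the 9 genes (*Grem1*) had M > 0.5, against 10.1% of the 14149 genes with M. The median M was 0.03 over the 8 genes with A > 0 and 0.04 over all 9, compared with −0.05 over all genes with A > 0. In bulk RNA such as this, fewer cells that express a gene and less RNA of it per cell cannot be told apart.

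**Figure D1:**
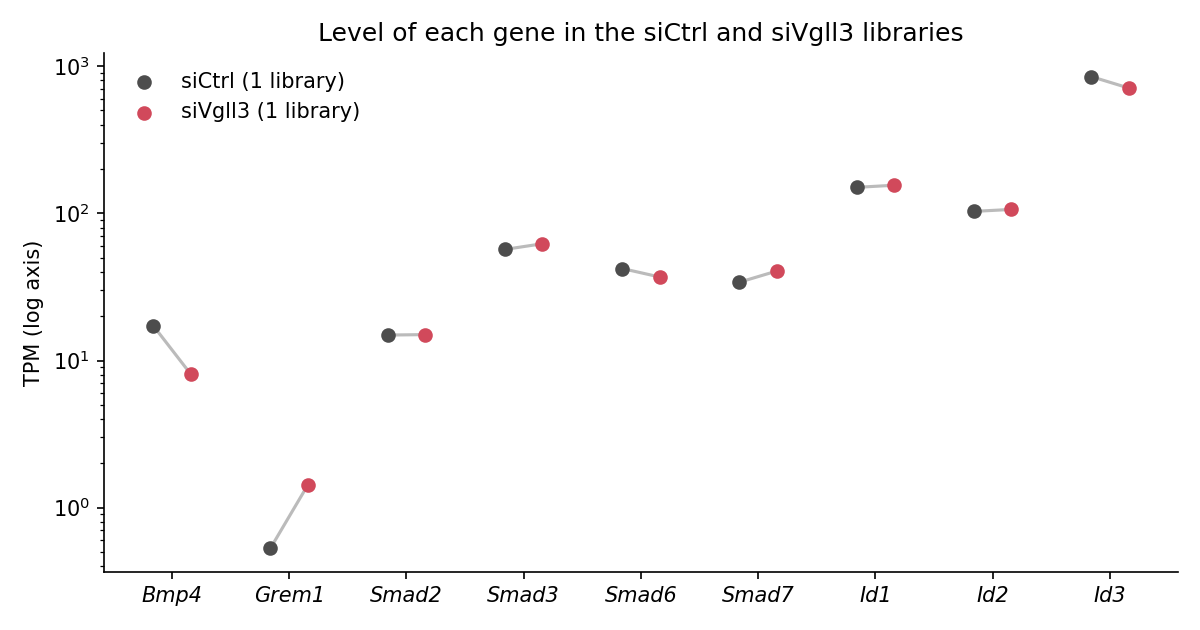
TPM (log axis) of each of the 9 genes in the siCtrl library (grey) and the si*Vgll3* library (red), with 1 library per condition and a line joining the pair. *Bmp4* goes from 17.3 to 8.09 TPM and *Grem1* from 0.529 to 1.43 TPM, while *Id3* is the most abundant in both libraries at 849 and 710 TPM.

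*Bmp4*, a BMP ligand with broad roles in mesoderm and heart development, had 2271 reads with siCtrl and 985 with si*Vgll3*. Its TPM was 17.3 with siCtrl and 8.09 with si*Vgll3*, an M of −1.09 [−1.20, −0.99], so that 46.8% of the siCtrl level remained. Only 2.66% of the genes with A > 0 had a lower M. In mm10 the gene (NCBI gene 12159) spans 46383520 to 46390669 of chromosome 14, on the minus strand. On the plus strand, 2 annotated genes overlap it, *Gm15217* and *Gm15222*. The library kit keeps strand, but the strand setting of the counting is not given in the sources used here, so reads of these neighbours cannot be told apart from those of *Bmp4*.

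*Grem1* encodes gremlin 1, a secreted antagonist that binds BMP2, BMP4 and BMP7. It had 56 reads with siCtrl and 139 with si*Vgll3*, and its TPM was 0.529 with siCtrl and 1.43 with si*Vgll3*, an M of 1.43 [0.98, 1.91]. Its A of −0.03 fell just short of the filter, so by the rule it was not called higher. Low genes scatter widely between these libraries: 31.5% of the 2395 genes with A of 0 or less had M > 0.5, and 12.1% had an M at least as high as that of *Grem1*. Adding 1 TPM to each library brought its M to 0.67. The gene (NCBI gene 23892) lies on chromosome 2 from 113746164 to 113758646 on the minus strand with no overlapping gene. *Bmp4* was 32.6 times as abundant per length as *Grem1* with siCtrl and 5.65 times with si*Vgll3*, and their counting intervals of M lay on opposite sides of 0.

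**Figure D2:**
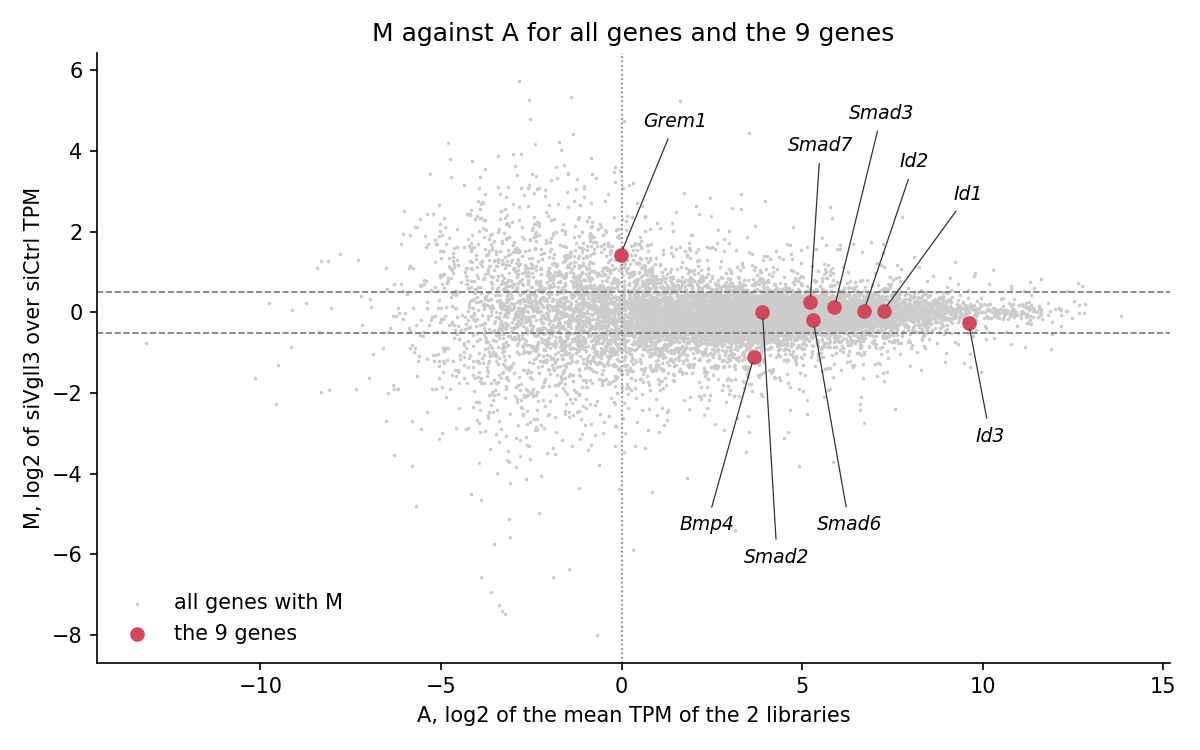
M (log2 of si*Vgll3* over siCtrl TPM) against A (log2 of mean TPM) for every gene with M (grey) and the 9 genes (red), with dashed lines at M of −0.5 and 0.5 and a dotted line at A of 0. *Bmp4* lies below the lower line at an M of −1.09, *Grem1* lies above the upper line just left of A = 0, and the other genes lie between the lines.

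The promoter windows of the genes that moved most (*Bmp4* and *Grem1*) and of a pair of BMP targets that did not pass the threshold (*Id2* and *Id3*) are shown to set their sequences side by side. RefSeq windows for build GRCm38.p6, from 250 bases before to 50 bases after the start that RefSeq annotates, matched 6 of the 9 genes: *Bmp4*, *Grem1*, *Id2*, *Id3*, *Smad3* and *Smad6*. The RefSeq start lies 1048 bases downstream of the GENCODE gene start for *Id2* and 325 bases downstream for *Id3*, so both windows lie inside the GENCODE gene spans given below. For the other 4 genes the starts differ by at most 2 bases. Each window was searched on both strands for GGCGCC (a GC-rich site of BMP SMADs, its own reverse complement), CAGAC (a core SMAD site, written GTCTG on the other strand) and GGAATG (the site of TEAD factors, known partners of VGLL family proteins, written CATTCC on the other strand). No matches overlapped each other in these windows. Capitals mark the matches, and each window is written 5′ to 3′ on the strand of the gene.
Bmp4, chr14:46390620-46390919, minus strand: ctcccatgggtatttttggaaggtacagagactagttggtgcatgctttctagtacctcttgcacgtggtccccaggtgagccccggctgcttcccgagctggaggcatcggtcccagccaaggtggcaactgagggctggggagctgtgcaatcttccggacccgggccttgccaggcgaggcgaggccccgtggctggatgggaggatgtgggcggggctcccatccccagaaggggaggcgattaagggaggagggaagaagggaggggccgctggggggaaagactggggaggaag
Grem1, chr2:113758599-113758898, minus strand: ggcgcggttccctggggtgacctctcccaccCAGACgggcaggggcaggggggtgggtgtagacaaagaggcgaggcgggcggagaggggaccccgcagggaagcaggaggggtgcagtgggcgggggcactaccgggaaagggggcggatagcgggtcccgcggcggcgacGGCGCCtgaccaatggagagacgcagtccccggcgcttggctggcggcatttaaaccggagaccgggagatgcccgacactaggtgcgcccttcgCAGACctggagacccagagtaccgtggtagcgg
Id2, chr12:25096043-25096342, minus strand: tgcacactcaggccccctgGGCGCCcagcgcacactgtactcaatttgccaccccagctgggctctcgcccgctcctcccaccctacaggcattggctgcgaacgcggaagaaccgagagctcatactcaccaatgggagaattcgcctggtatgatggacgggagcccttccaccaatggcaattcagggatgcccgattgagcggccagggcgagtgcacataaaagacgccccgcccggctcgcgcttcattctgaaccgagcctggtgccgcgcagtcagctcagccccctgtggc
Id3, chr4:136143572-136143871, plus strand: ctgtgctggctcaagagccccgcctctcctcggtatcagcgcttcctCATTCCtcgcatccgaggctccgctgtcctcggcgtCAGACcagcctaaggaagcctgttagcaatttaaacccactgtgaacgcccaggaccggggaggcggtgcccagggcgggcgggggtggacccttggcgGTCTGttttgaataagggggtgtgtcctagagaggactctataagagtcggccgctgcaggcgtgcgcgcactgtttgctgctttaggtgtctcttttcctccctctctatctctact

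The *Bmp4* window held none of the motifs. The *Grem1* window held CAGAC at bases 32 to 36 and 268 to 272 and GGCGCC at bases 173 to 178. The *Id2* window held GGCGCC at bases 20 to 25. The *Id3* window held CAGAC at bases 84 to 88, its reverse complement at bases 183 to 187 and the reverse complement of GGAATG at bases 48 to 53. The *Smad3* and *Smad6* windows held none. Among all 32851 windows of the same length, GGCGCC was found in 11.9%, CAGAC in 49.6% and GGAATG in 14.7%, so such matches are common. They describe the letters in these windows and say nothing of binding, sites outside the windows were not searched, and whether TEAD factors act on these genes in these cells was not tested.

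The ID genes were the most abundant of the group and stayed within the threshold. *Id3* was at 849 TPM with siCtrl and 710 TPM with si*Vgll3*, from 51677 and 39980 reads, an M of −0.26 [−0.28, −0.24]. In siCtrl, 98.7% of the genes with TPM lay below it, and with si*Vgll3* 98.5%. *Id1* was at 150 TPM with siCtrl and 155 TPM with si*Vgll3*, from 8951 and 8567 reads, an M of 0.05 [0.01, 0.09]. *Id2* was at 103 and 106 TPM, from 8372 and 7990 reads, an M of 0.04 [0.00, 0.09]. The interval of *Id3* did not overlap those of *Id1* and *Id2*. Summed over the 3 genes, the TPM was 1102 with siCtrl and 972 with si*Vgll3*, of which *Id3* made up 77.0% and 73.1%. *Id1* (NCBI gene 15901) lies on chromosome 2 from 152736251 to 152737410, *Id2* (NCBI gene 15902) on chromosome 12 from 25093799 to 25097140 and *Id3* (NCBI gene 15903) on chromosome 4 from 136143497 to 136145755, and no annotated gene overlaps them.

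The inhibitory SMAD genes, which are induced by the signals they limit, had M of opposite sign, both within the threshold. *Smad6*, which acts mainly on BMP receptors, was at 42.2 TPM with siCtrl and 36.9 TPM with si*Vgll3*, from 7999 and 6481 reads, an M of −0.19 [−0.24, −0.14]. *Smad7*, which acts on both TGF-β and BMP receptors, was at 34.05 TPM with siCtrl and 40.6 TPM with si*Vgll3*, from 9655 and 10648 reads, an M of 0.25 [0.21, 0.29]. The counting intervals of the pair did not overlap. *Smad6* was the more abundant with siCtrl, at 1.24 times the TPM of *Smad7*, and the less abundant with si*Vgll3*, at 0.910 times. Their summed TPM was 76.2 with siCtrl and 77.5 with si*Vgll3*.

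The receptor-regulated genes of the TGF-β branch also lay within the threshold. *Smad3*, the main SMAD of fibrotic gene expression, was at 56.9 TPM with siCtrl and 62.1 TPM with si*Vgll3*, from 18478 and 18689 reads, an M of 0.13 [0.10, 0.16]. *Smad2* was at 14.89 TPM with siCtrl and 14.99 TPM with si*Vgll3*, from 8161 and 7588 reads, an M of 0.01 [−0.04, 0.06]. *Smad3* was thus 3.82 times as abundant per length as *Smad2* with siCtrl and 4.14 times with si*Vgll3*. *Smad3* (NCBI gene 17127) and *Smad6* (NCBI gene 17130) lie on the minus strand of chromosome 9, from 63646767 to 63757994 and from 63953076 to 64022059. *Smad7* (NCBI gene 17131) and *Smad2* (NCBI gene 17126) lie on the plus strand of chromosome 18, from 75367529 to 75395935 and from 76241580 to 76310963, and no annotated gene overlaps any of these. RNA levels do not show how much SMAD protein is phosphorylated, and phosphorylation was not measured by these libraries.

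**Figure D3:**
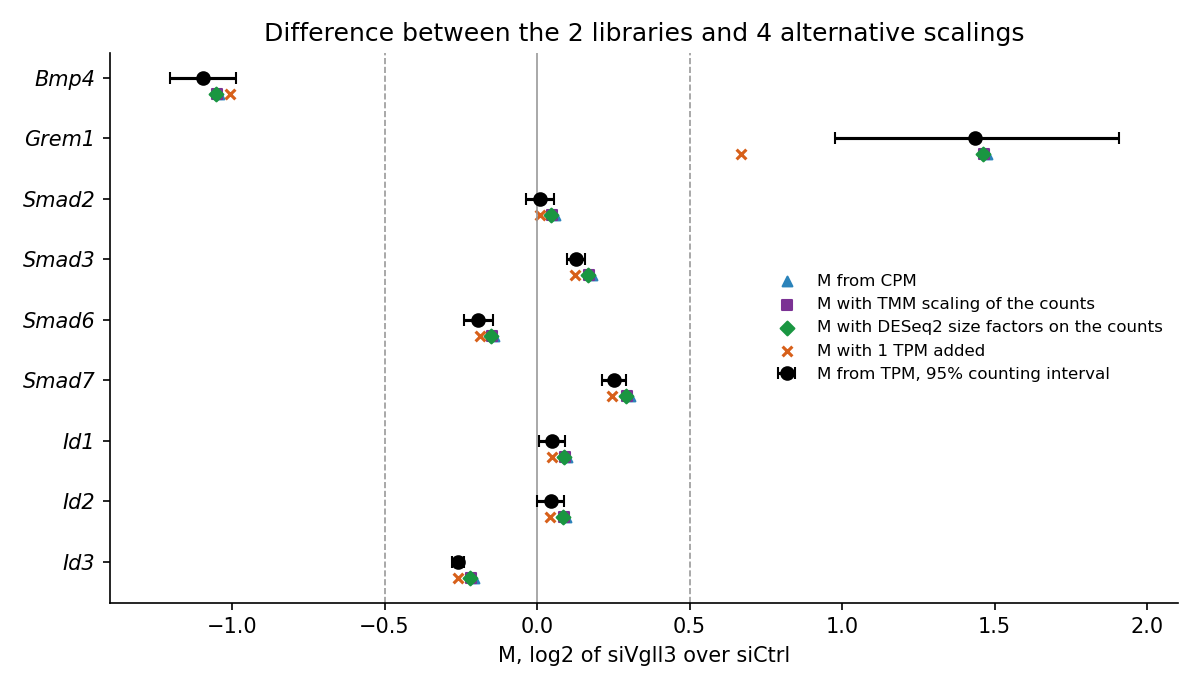
M of each of the 9 genes from TPM, with its 95% counting interval (black), and M from CPM, with TMM scaling, with DESeq2's size factors and with 1 TPM added (coloured symbols, set below each black point). *Bmp4* lies below −0.5 and *Grem1* above 0.5 in every setting drawn, though *Grem1* drops to 0.67 with 1 TPM added, and the SMAD and ID genes lie between the dashed lines at −0.5 and 0.5.

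The other genes of the pathway were taken from 8 lists with 81 genes in all, every one of them in the count table. Of these, 55 had A > 0, 11 were lower (20.0%, against 11.4% of all genes), 1 was higher (1.82%, against 5.73%) and 43 were neither. Their median M was −0.03, against −0.05 over all genes with A > 0. The same shares of all genes, 11.4% lower and 5.73% higher, and the same median stand beside each list below. With CPM in place of TPM, 8 of the pathway genes were lower and 2 were higher. Among all genes the shares were 10% and 6.36%. The number of pathway genes with A > 0 under CPM was not counted, so these counts are not shares. With no filter on A, 15 of the 67 pathway genes with TPM were lower, against 14.9% of all genes, and 7 were higher, against 10.1%. With a threshold of 1 on M, 4 of the 55 pathway genes with A > 0 were lower, against 3.27% of all genes. None was higher, against 1.76%.

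Among the other BMP ligands, 6 of 13 genes had 0 reads in both libraries, and only *Gdf6* and *Bmp6* had A > 0, with a median M of −0.44. *Gdf6*, a ligand known from joint and skeletal patterning, was the most abundant and fell from 204 to 136 TPM, with M at −0.59 [−0.61, −0.57]. *Bmp6* was at 44.3 and 36.3 TPM, an M of −0.29 [−0.33, −0.24]. Summed with *Bmp4*, the ligands were at 266 TPM with siCtrl and 181 TPM with si*Vgll3*, and *Gdf6* held 76.6% and 75.1% of this and *Bmp4* 6.49% and 4.47%. *Bmp2*, the closest relative of *Bmp4*, had 12 reads with siCtrl and 36 with si*Vgll3*, at 0.0483 and 0.170 TPM. The other ligands with few reads went both ways. *Bmp8a* had 16 and 30 reads, while *Bmp3* had 69 and 18, *Gdf5* 45 and 27 and *Bmp5* 21 and 0. All 3 ligands with A > 0 had M below 0, with *Bmp4* the lowest and *Bmp6* within the threshold. Most genes with A > 0 also had M below 0, since their median M was −0.05.

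Of the 11 BMP receptors and co-receptors, 8 had A > 0, 2 were lower and none was higher. Their median M was −0.06. *Acvr1*, the type I receptor ALK2, fell from 58.2 to 27.7 TPM, with M at −1.07 [−1.12, −1.02], from 10780 and 4875 reads. *Acvrl1*, the type I receptor ALK1 best known from endothelium, fell from 125 to 86.8 TPM, with M at −0.53 [−0.55, −0.50]. With CPM the M of *Acvrl1* was −0.48, which is inside the threshold. *Eng* (endoglin), the most abundant co-receptor, was at 272 and 266 TPM, an M of −0.04 [−0.05, −0.02], which turned positive, to 0.02, with CPM. *Bmpr1a*, the type I receptor ALK3 for BMP2 and BMP4, was at 82.6 and 75.9 TPM, and *Bmpr2*, the main type II receptor, at 30.1 and 32.4 TPM, M of −0.12 and 0.11. The endothelial markers given above, of which *Tek* was lower and *Pecam1* and *Cdh5* had M above 0, bear on *Acvrl1* and *Eng*. The part of endothelial cells in these values was not tested.

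Beside *Grem1*, 17 antagonists and other extracellular modulators were listed, of which 9 had A > 0, 2 were lower and none was higher, with a median M of 0.03. *Fst* (follistatin), which binds activins and some BMPs, fell from 14.0 to 6.90 TPM, with M at −1.02 [−1.13, −0.92]. *Chrd* (chordin) fell from 1.69 to 0.623 TPM, with M at −1.44 [−1.75, −1.14], from 362 and 123 reads, and its M was −0.73 with 1 TPM added. *Fstl1* (follistatin-like 1), the most abundant, was at 1857 and 1318 TPM, an M of −0.49 [−0.50, −0.49] just inside the threshold. The highest M among the 9 were 0.45 for *Fstl3* (59.2 and 80.7 TPM) and 0.40 for *Bmper* (95.2 and 125 TPM), both within the threshold. Like *Grem1*, 5 of these genes had TPM but lay below the filter on A. *Nog* (noggin) had 29 reads with siCtrl and 52 with si*Vgll3*, at 0.236 and 0.457 TPM, and *Chrdl2* and *Vwc2* also had M above 0.5, at 1.05 and 1.21. *Chrdl1* (chordin-like 1) had 55 reads with siCtrl and 4 with si*Vgll3*, an M of −3.67 [−5.59, −2.23], and *Kcp* had 107 and 57 reads, an M of −0.80 [−1.29, −0.32]. Over all lists, 12 genes with TPM lay at or below the filter, of which 6 had M > 0.5 and 4 had M < −0.5. Among all 2395 genes at or below the filter, 31.5% had M > 0.5 and only 36.7% lay within 0.5 of 0.

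**Figure D4:**
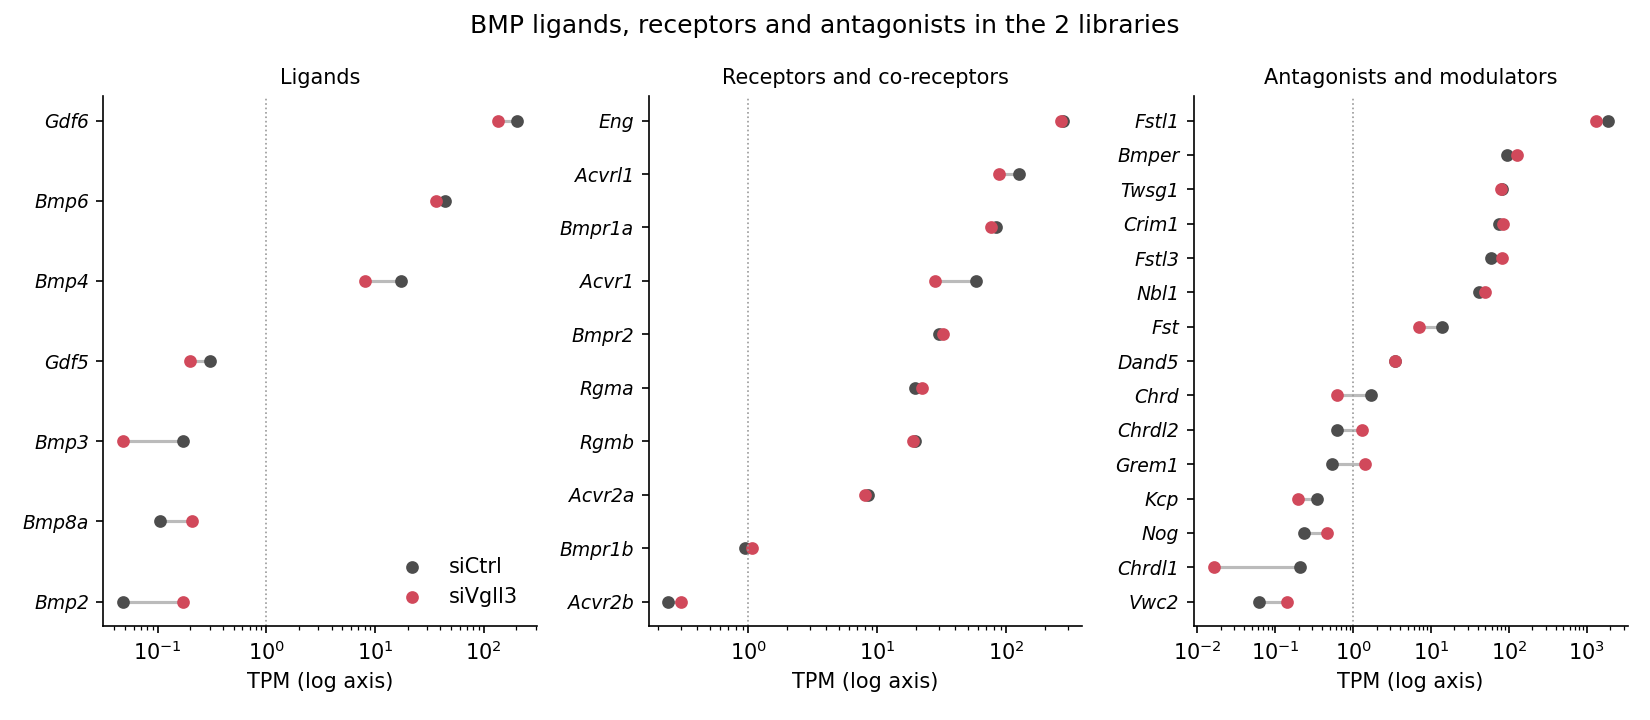
TPM (log axis) of the BMP ligands, the receptors and co-receptors, and the antagonists and modulators that have TPM, with siCtrl (grey) and si*Vgll3* (red), with 1 library per condition, a line joining each pair and a dotted line at 1 TPM. The widest gaps among genes above 1 TPM in both libraries are those of *Bmp4* (17.3 and 8.09), *Acvr1* (58.2 and 27.7) and *Fst* (14.0 and 6.90).

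The other SMAD genes, 4 in number, were neither lower nor higher, with a median M of −0.03. *Smad4*, the shared partner, was at 57.9 and 58.0 TPM, an M of 0.00 [−0.03, 0.04]. *Smad1* and *Smad5*, the BMP-regulated SMADs, were at 40.0 and 41.8 TPM and at 26.6 and 25.5 TPM, and *Smad9* was at 1.68 and 1.25 TPM, an M of −0.43 [−0.62, −0.25]. Of 17 regulators of SMADs, 1 was lower and 1 was higher, with a median M of 0.06. *Zeb2*, a zinc-finger repressor that binds SMADs, rose from 18.3 to 28.5 TPM, with M at 0.64 [0.61, 0.68]. *Zfyve9* (SARA), which presents SMAD2 and SMAD3 to the TGF-β receptor, fell from 12.2 to 8.53 TPM, with M at −0.52 [−0.58, −0.45], and was at −0.46 with CPM. *Pmepa1*, the most abundant, was at 198 and 214 TPM, an M of 0.11 [0.10, 0.13].

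Of 10 other BMP-responsive genes, a list that leaves out *Id1*, *Id2* and *Id3*, 6 had A > 0. Of these 3 were lower, against 11.4% of all genes, and none was higher, against 5.73%. Their median M was −0.40, against −0.05 over all genes with A > 0. *Hey1*, a repressor that also answers to Notch, fell from 1.97 to 0.611 TPM, with M at −1.69 [−2.06, −1.32], from 277 and 80 reads, and its M was −0.88 with 1 TPM added. *Id4*, the remaining ID gene, fell from 9.66 to 5.90 TPM, with M at −0.71 [−0.86, −0.56], from 1024 and 579 reads. *Atoh8*, a basic helix-loop-helix factor, fell from 103 to 69.2 TPM, with M at −0.57 [−0.60, −0.53]. *Bambi*, a decoy receptor, was at 8.82 and 9.60 TPM, an M of 0.12 [0.05, 0.20]. *Id4* thus lay outside the range of *Id1*, *Id2* and *Id3*, which ran from −0.26 to 0.05, and its level was below 10 TPM where theirs were above 100 TPM.

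Genes that answer to TGF-β through SMAD3 were listed for the other branch, and of 9 genes 1 was lower, none was higher and 8 were neither, with a median M of 0.04. *Ctgf*, which encodes a matricellular protein, was the most abundant, at 1467 TPM with siCtrl and 1481 TPM with si*Vgll3*, an M of 0.01 [0.00, 0.02]. *Ltbp2*, of the gene family named for latent TGF-β binding, fell from 34.1 to 23.9 TPM, with M at −0.51 [−0.55, −0.47], and was at −0.46 with CPM. Of the 3 E-protein genes whose products ID proteins bind, *Tcf4* fell from 45.5 to 30.1 TPM, with M at −0.60 [−0.63, −0.56]. *Tcf3* was at 50.8 and 52.4 TPM and *Tcf12*, the most abundant, at 57.3 and 56.9 TPM, M of 0.04 and −0.01, and the latter was 0.01 with CPM.

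**Figure D5:**
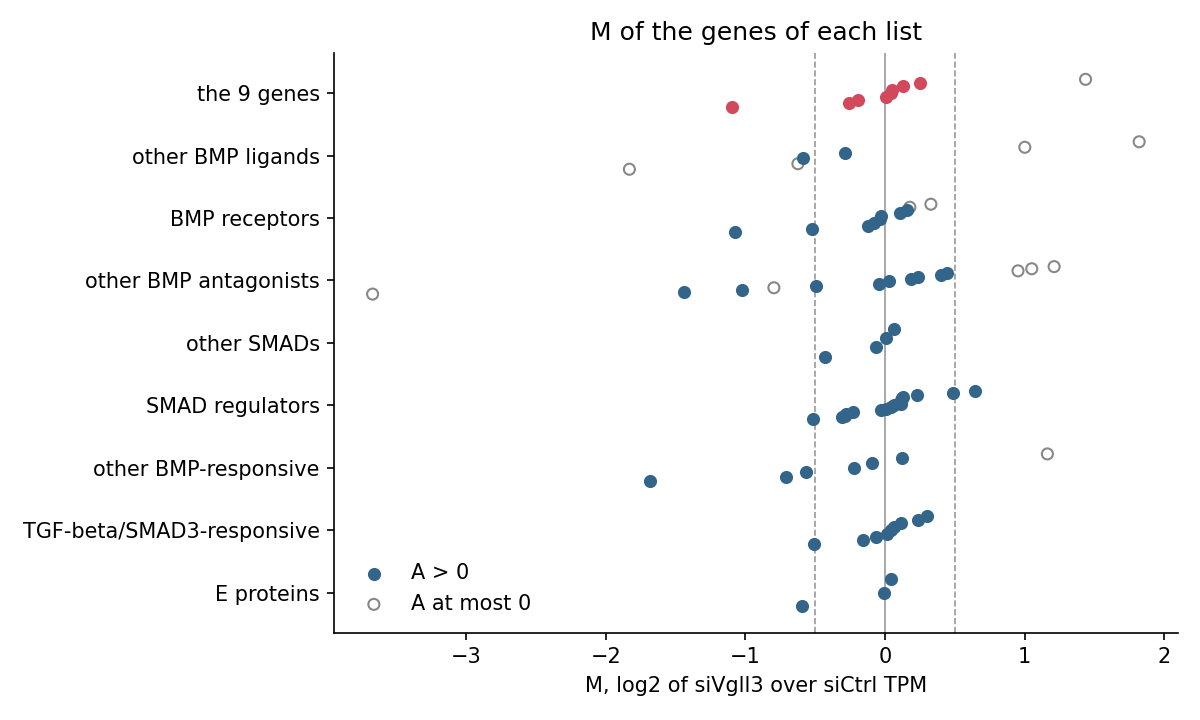
M (log2 of si*Vgll3* over siCtrl TPM) of every gene with M in each list, filled for A > 0 and open for A of 0 or less, with dashed lines at −0.5 and 0.5. The open points spread widely on both sides, and among filled points the lowest are *Hey1* at −1.69, *Chrd* at −1.44, *Bmp4* at −1.09 and *Acvr1* at −1.07. With 1 TPM added, which is not drawn, *Hey1* at −0.88 and *Chrd* at −0.73 lie above *Acvr1* at −1.05 and *Bmp4* at −1.01.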

How the data were processed

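RNA was sequenced from siCtrl and si*Vgll3* myofibroblasts, 1 library each. The authors made TruSeq Stranded mRNA libraries, ran them on a NovaSeq instrument, checked reads with FastQC, trimmed them with Trimmomatic, aligned them with HISAT2 (mm10) and assembled annotated genes with StringTie. Versions and the annotation release are not given in the sources used here. The authors deposited raw read counts per gene, with no normalization, and TPM per gene, scaled by them for gene length and library size. The TPM tables hold only genes with a read in both libraries.

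M and A were computed from TPM with nothing added. Intervals came from scipy 1.17.1, TMM factors from edgeR 4.0.16 and size factors from DESeq2 1.42.0, both used for scaling only. The interval code was tested on simulated data. GENCODE vM21 (GRCm38, the assembly of mm10) gave gene positions.

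Members and lists were chosen with earlier results of these data known. Named genes were the 9 members, *Vgll3*, the most abundant gene and every gene past the threshold of each of 8 pathway lists, and of each of 5 marker lists the most abundant gene and the first 2. *Bmp2*, *Bmp3*, *Bmp5*, *Bmp6*, *Bmp8a*, *Gdf5*, *Bmpr1a*, *Bmpr2*, *Fstl3*, *Bmper*, *Nog*, *Chrdl1*, *Chrdl2*, *Vwc2*, *Kcp*, *Smad1*, *Smad5*, *Smad9*, *Bambi*, *Tcf3* and the markers *Postn*, *Col1a1*, *Col3a1*, *Col1a2*, *Csf1r*, *Thy1*, *Tnni3*, *Abcc9* and *Kcnj8* fall outside that rule and were picked once their values were known. With a pair of libraries, no likeness of pattern to other genes was computed. Some genes of these pathways are not reported here and are left out of the lists and their counts.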

Additional observations from a re-analysis of the deposited data

How the results depend on the processing

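No paired analysis was possible because there is 1 library per condition, and leaving out a library would leave no comparison. Under every alternative tried, *Bmp4* was the only lower gene of the 9. Among all genes, the share called lower ran from 8.19% to 14.9% at the threshold of 0.5. It was 3.27% at a threshold of 1. For the alternative that asked the whole counting interval to lie past 0.5, no such share was computed. The count of higher genes was 0 except with no filter on A and with 1 TPM added, where it was 1 (*Grem1*). In these settings 10.1% and 4.32% of all genes were called higher. *Grem1* did not pass the filter on A in the others. The median M of the group, 0.03, was 0.0766 with CPM and 0.0722 after centring, which adds the same amount to every gene. With CPM the median M over all genes also moved, from −0.045 to 0.0051, and the cause was not tested. Of the pathway genes, 11 were lower and 1 higher. With each scaling of the counts and after centring, 2 were higher, with *Trim33*, at 0.48 on the TPM scale, added (named after its values were seen). Among all genes, the share called higher was 6.36% with CPM, 6.21% with TMM, 6.16% with DESeq2's size factors and 6.51% after centring. With no filter on A, 15 were lower and 7 higher, and with a threshold of 1 on M, 4 were lower and 0 higher, since these settings change which genes are counted. For 28 single genes, 140 alternative values were computed, of which 76 left the counting interval and 0 reversed a call. Another scaling moved the M of any of them by at most 0.11. With 1 TPM added, *Grem1*, *Hey1* and *Chrd* moved by more than 1.5 times, to 0.67, −0.88 and −0.73, and *Zfyve9* and *Ltbp2* lay inside the threshold. With M from any scaling of the counts or after centring, *Acvrl1*, *Zfyve9* and *Ltbp2* lay inside the threshold. In these same settings, but not with 1 TPM added, *Eng* and *Tcf12*, both near 0, changed sign. With 1 library per condition, depth does not limit the abundant genes, while *Grem1* rests on 195 reads.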
